A study of Mus musculus with 24 samples.

Results

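A set of 9 genes of ammonia handling was followed across 24 RNA-seq libraries of mouse embryonic liver. They were chosen by name: Nags, Cps1, Otc, Ass1 and Asl of the urea cycle, the mitochondrial carriers Slc25a15 and Slc25a13, and the glutamine enzymes Glul and Gls2. All 9 were found among the 25361 genes of the table. Livers at embryonic day 12.5 were digested in the presence of actinomycin D, triptolide and anisomycin, and cells bearing CD146 were taken with microbeads as liver sinusoidal endothelial cells (LSECs), leaving the rest of the liver as non-endothelial cells (non-ECs). Each fraction held 4 genotypes with 3 embryos each.

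Chd4 and Brg1 encode the ATPases of chromatin-remodelling complexes, and floxed alleles of both were deleted with VE-cadherin-Cre, which is active in endothelial cells and in some blood cells. Chd4-ECKO embryos were Chd4 fl/fl;Brg1 fl/+;VE-cadherin-Cre+, so they also carried 1 floxed Brg1 allele. Brg1-ECKO embryos had the reverse combination, Brg1 fl/fl with Chd4 fl/+ and the same Cre, and Chd4/Brg1-ECDKO embryos were fl/fl for both genes with Cre. Controls were Cre-negative littermates that carried at least 1 floxed allele of each gene. The background was mixed, and the sexes were pooled. The non-EC fraction of every mutant therefore came from a liver in which the endothelium carried the deletion, and hepatoblasts were not the target of the Cre.

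The urea cycle turns ammonia into urea in hepatocytes. N-acetylglutamate, made by NAGS, activates CPS1, which joins ammonia and bicarbonate into carbamoyl phosphate in mitochondria; OTC transfers it to ornithine, and the citrulline leaves for the cytosol, where ASS1 and ASL turn it by way of argininosuccinate into arginine. SLC25A15 exchanges ornithine and citrulline across the inner membrane and SLC25A13 supplies aspartate. In the adult liver the cycle enzymes are mostly periportal, and the hepatocytes around the central vein instead fix ammonia into glutamine through GLUL, whereas GLS2 releases ammonia from glutamine.

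The levels were given as TPM (transcript abundance scaled per length and to a total of 1000000 in every library), so the reads behind a value are unknown. Fold changes were fitted with limma on log2(TPM + 1). A gene was called at any size when its Benjamini-Hochberg adjusted p over all genes tested was below 0.05, and called as a DEG when its log2 fold change was also beyond 1 in size. Each library reached 1 TPM in 11450 to 13219 genes. The marker lists separated the fractions: the summed TPM of 11 endothelial genes was 974 to 2040 in LSECs and 58.7 to 115 in non-ECs, and that of 12 hepatoblast genes was 19887 to 43357 in non-ECs. The LSEC libraries also held hepatoblast transcripts, with sums of 3997 to 9329 in 11 libraries and 32257 in Brg1-ECKO replicate 1, the library with the lowest endothelial sum. Where a result for the members rests on that library, its value without it is also given. Mesenchymal transcripts were also enriched in LSECs, where 6 genes summed to 1088 to 1890 TPM against 26.2 to 107 TPM in non-ECs. The sum of 8 macrophage genes was 475 to 1068 TPM in LSECs and 94.6 to 296 TPM in non-ECs. Mitochondrially encoded genes took 13.9 to 31.5% of the TPM in LSECs and 2.33 to 7.69% in non-ECs. The RNA of the targeted genes was a weak check of the labels, since a whole-gene value may hold reads of exons outside the floxed part. In LSECs of the same age, isolated by another surface marker, the paper reports lower Chd4 and Brg1 RNA in the relevant mutants by quantitative PCR. Chd4 was at 285, 255 and 246 TPM in control LSECs and at 223, 168 and 252 TPM in Chd4-ECKO LSECs (log2 fold change -0.30, SE 0.17, limma adjusted p = 0.962). Smarca4, which encodes BRG1, was at 161, 144 and 134 TPM in control LSECs and at 157, 111 and 127 TPM in Brg1-ECKO LSECs (log2 fold change -0.16, SE 0.17, limma adjusted p = 0.779). In both cases the groups overlapped. Smarca4 was also lower, without a call, in Chd4-ECKO LSECs (log2 fold change -0.22, SE 0.17). In Chd4/Brg1-ECDKO LSECs the log2 fold changes were -0.07 for Chd4 and -0.14 for Smarca4, with adjusted p of 0.869 and 0.704 in the same limma model.

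The member genes are spread over 8 chromosomes of GRCm39, with Cps1 and Glul on the same one. Otc is X-linked, at chrX:10118503-10187265 on the forward strand. The enzymes with autosomal genes are Cps1 (chr1:67161988-67270418, forward), Ass1 (chr2:31352181-31410862, forward), Asl (chr5:130040099-130058088, reverse) and Nags (chr11:102036339-102040303, forward). The carriers are Slc25a15 (chr8:22865516-22889423, reverse) and Slc25a13 (chr6:6040252-6217294, reverse), and the glutamine enzymes are Glul (chr1:153775690-153785469, forward) and Gls2 (chr10:128030316-128045873, forward). Exons of Nags and Gls2 share 19.5% and 16.6% of their bases with genes of the opposite strand, and the strand used in counting is not given in the sources used here, so that part of these levels may belong to the partner gene.

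The 120 bases upstream of the start site are shown for 3 members that span the levels and functions described below, namely the X-linked enzyme (Otc), the cycle enzyme with the highest level (Ass1) and the glutamine synthetase gene (Glul). They were read 5′ to 3′ from the GRCm39 genome, at chrX:10118383-10118502, chr2:31360034-31360153 and chr1:153776203-153776322, all on the forward strand. None of these windows overlaps an annotated exon.
Otc: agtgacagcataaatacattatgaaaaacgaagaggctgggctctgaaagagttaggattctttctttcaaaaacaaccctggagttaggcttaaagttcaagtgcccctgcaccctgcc
Ass1: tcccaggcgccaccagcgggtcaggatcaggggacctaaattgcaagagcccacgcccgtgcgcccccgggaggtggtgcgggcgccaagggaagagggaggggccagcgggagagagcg
Glul: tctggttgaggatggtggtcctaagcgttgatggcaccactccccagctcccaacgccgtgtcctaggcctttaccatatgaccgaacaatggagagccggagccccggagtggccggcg
The window of Otc was poorer in G and C, at 43.3%, than those of Ass1 and Glul, at 71.7 and 61.7%. The letters TATAAA of the TATA box, TTGCNNAA of C/EBP sites and AAAGTCCA of HNF4 sites were searched on both strands from 250 bases before to 50 bases after each start site. None matched in the 9 member promoters, and no letters are therefore in capitals; over 21618 promoters of the same length the patterns occurred in 13.23, 10.69 and 1.24%.

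In control non-ECs the levels of the members spanned from below 1 TPM to above 100 TPM. Glul was highest at 170, 132 and 161 TPM (mean 154), followed by Ass1 at 121, 109 and 118 TPM (mean 116). Slc25a13 (mean 58.5 TPM) and Slc25a15 (mean 36.6 TPM) came next, then Asl and Otc with means of 24.6 and 20.5 TPM. Nags, whose product is needed only in catalytic amounts, had a mean of 6.72 TPM and Gls2 one of 3.15 TPM. Cps1 was the lowest at 0.401, 0.456 and 0.404 TPM. Of the neighbours in this order only Asl and Otc had library ranges that overlapped. The RNA of the cytosolic and carrier steps was thus present at this stage, and that of the first mitochondrial step was near the lower end of what TPM resolves.

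The same order held in control LSECs. Glul was at 235, 265 and 249 TPM and Ass1 at 29.9, 34.2 and 25.5 TPM, whereas Cps1 was at 0.147, 0.259 and 0.0255 TPM. The ranges of neighbours overlapped between Slc25a15 and Asl and between Nags and Gls2 in this fraction. Of gene pairs with related products, Slc25a15 held 98.1 to 100% of the summed TPM of Slc25a15 and Slc25a2 in all 24 libraries. Slc25a13 held 65.8 to 85.9% of its pair with Slc25a12. Reads of similar stretches in such pairs may have been split by the counting.

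**Figure D1:**
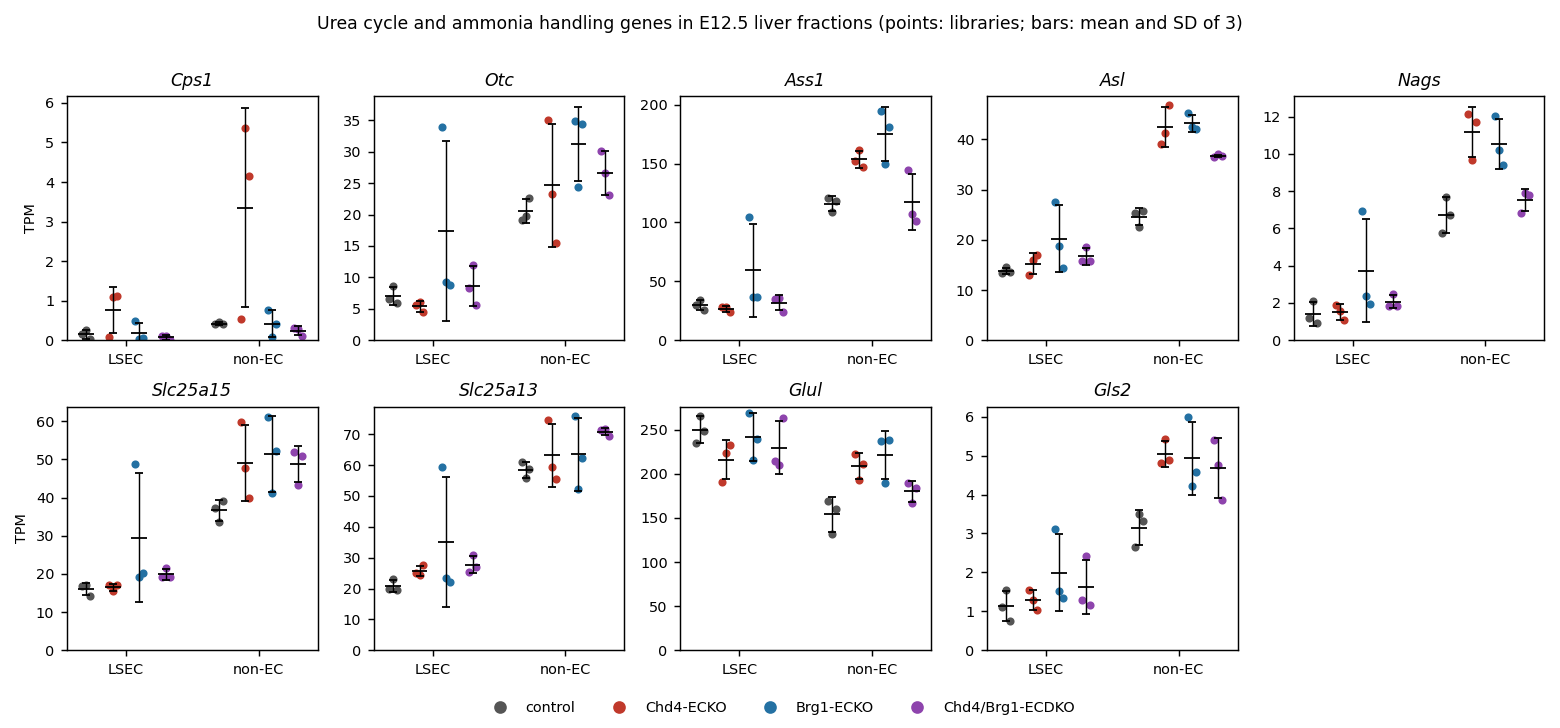
TPM of the 9 members in each of the 24 libraries, by genotype, with LSEC and non-EC fractions apart. Points are single embryos, bars give the mean and SD of 3, and each panel has its own axis. In the controls all members but Glul sat higher in non-ECs, and the Chd4-ECKO non-EC libraries of Cps1 ranged from 0.533 to 5.37 TPM.

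The comparison of control LSECs with control non-ECs asked which fraction carries each transcript. At any size 7 members were lower in LSECs and Glul was higher, against 67.1% of the 13775 genes tested that were called at any size in this comparison. As DEGs 5 members were lower and none was higher, against 32.7% of all genes. Ass1 (log2 fold change -1.93, SE 0.27) and Nags (-1.70, SE 0.26) differed most, followed by Slc25a13 (-1.45, SE 0.23), Otc (-1.44, SE 0.36, adjusted p = 0.00135) and Slc25a15 (-1.14, SE 0.23, adjusted p = 0.000217). Gls2 (-0.97, SE 0.21, adjusted p = 0.000443) and Asl (-0.78, SE 0.16, adjusted p = 0.000170) were lower by less than the DEG threshold. In bulk fractions, fewer cells of a type and less RNA per cell cannot be told apart.

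Glul differed in the opposite direction, with a log2 fold change of 0.70 (SE 0.13, limma adjusted p = 5.12e-05), and all 3 control LSEC libraries were above all 3 control non-EC libraries. Cps1 had a log2 fold change of -0.32 (SE 0.35, adjusted p = 0.439 in the same limma model), with both groups below 1 TPM. It entered this model of 24 libraries only through 4 Chd4-ECKO libraries above 1 TPM.

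The ratio of the mean TPM in control LSECs to that in control non-ECs ran from 0.211 for Nags, through 0.258 for Ass1, 0.342 for Otc and Cps1, 0.357 for Slc25a13, 0.362 for Gls2, 0.439 for Slc25a15 and 0.564 for Asl, to 1.62 for Glul. The median over the 9 members was 0.357. For 12 hepatoblast markers the median ratio was 0.293, with a range of 0.165 to 0.388 for 11 of them and a ratio of 0.981 for Dlk1. Of the members 6 lay within the range of these 11 genes, Slc25a15 and Asl lay between it and Dlk1, and Glul lay above all 12. By contrast the median ratio was 35.4 for the endothelial and 0.107 for the erythroid genes. It was 32.5 for 6 mesenchymal genes (range 16.4 to 40.2) and 2.37 for 8 macrophage genes (range 1.01 to 18.3). Which cell type of the LSEC fraction held a member's RNA, that of Glul included, was not tested. The larger mitochondrial share of LSEC libraries lowers all other TPM there: without mitochondrially encoded genes the ratio was 0.311 for Ass1, 0.682 for Asl and 1.96 for Glul, and Glul thus kept its direction. A total of 8 members were lower in every control LSEC library than in every control non-EC library, against 40.2% of all genes, and Glul was higher throughout, against 34.9%. Across all 12 libraries of each fraction the ranges of all 9 members overlapped. That overlap came from Brg1-ECKO replicate 1 for most of them: without this library 7 members were lower in every LSEC library than in every non-EC library, against 20.1% of all genes, and Cps1 and Glul still overlapped. Ass1 was then at 23.7 to 36.8 TPM in LSECs and at 101 to 195 TPM in non-ECs.

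**Figure D2:**
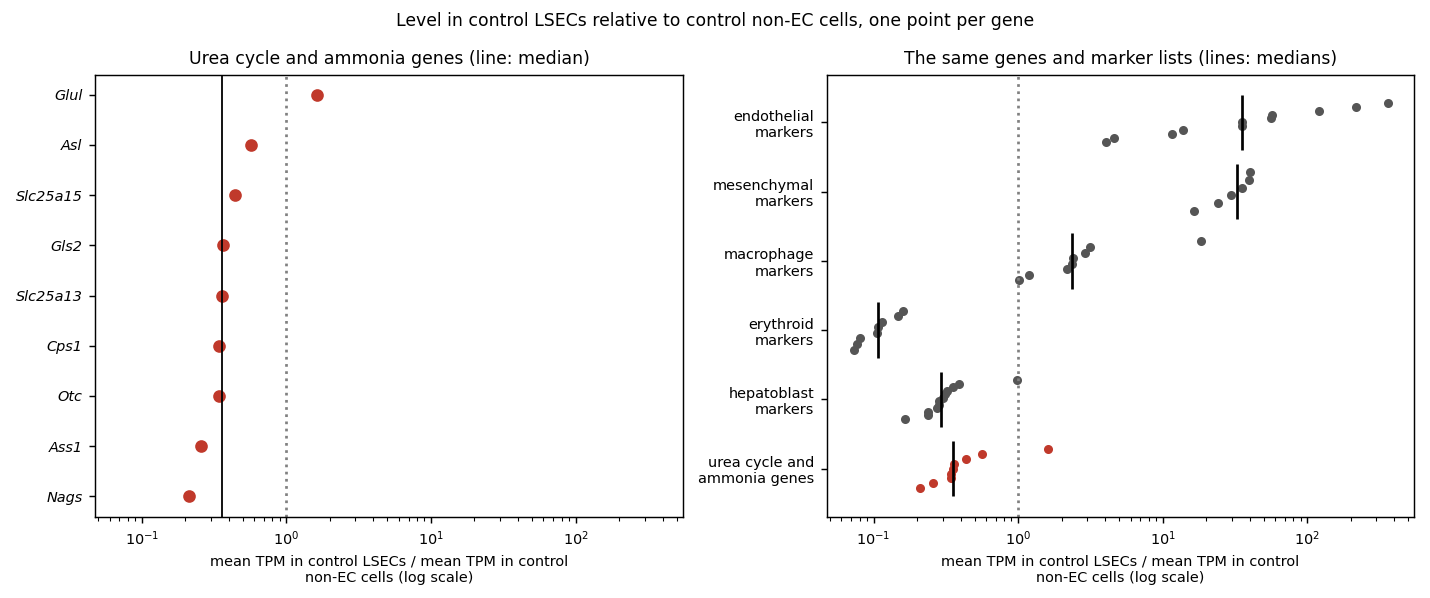
Ratio of mean TPM in control LSECs to control non-ECs on a log axis, for each of the 9 members and for the genes of the marker lists, with vertical lines at the medians. The members run from 0.211 (Nags) to 1.62 (Glul), 6 of them within the range of 11 hepatoblast genes (0.165 to 0.388) and all far below the endothelial median of 35.4.

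In the non-EC fraction the 3 mutant groups were each compared with the same 3 controls, which they therefore share. All members but Cps1, 8 in number, could be tested. In Chd4-ECKO non-ECs 3 members rose at any size, Asl, Nags and Glul, against 9.48% of 12223 genes called in either direction. In Brg1-ECKO non-ECs 4 rose, Asl, Ass1, Nags and Glul, against 11.7%. In Chd4/Brg1-ECDKO non-ECs Asl rose alone, against 0.581%. No member passed the DEG threshold in any of these comparisons, where 0.884, 1.37 and 0.115% of all genes did, and none fell.

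Asl, which encodes the enzyme that cleaves argininosuccinate into arginine and fumarate, had the smallest standard error of the 8 members in the non-EC model. It was at 25.4, 22.6 and 25.8 TPM in control non-ECs (24.6 ± 1.70, SD, n = 3). It was at 39.1, 41.3 and 46.9 TPM in the livers of Chd4-ECKO embryos (42.4 ± 4.0, SD, n = 3) and, in those of Brg1-ECKO embryos, at 45.2, 42.6 and 42.0 TPM (43.3 ± 1.71, SD, n = 3). In Chd4/Brg1-ECDKO it was at 36.6, 37.0 and 36.6 TPM (36.7 ± 0.243, SD, n = 3). Every one of the 9 Cre-positive libraries lay above every control, and the lowest mutant library was 36.6 TPM against a highest control of 25.8 TPM. By limma Asl rose by 0.76 on the log2 scale with Chd4 deleted (SE 0.09, adjusted p = 0.00425), by 0.79 with Brg1 deleted (SE 0.09, adjusted p = 0.00128) and by 0.56 with both deleted (SE 0.09, adjusted p = 0.0348). Over all alternatives run, the Chd4-ECKO value stayed between 0.69 and 0.82 (adjusted p from 0.00114 to 0.0406) and the Brg1-ECKO value between 0.74 and 0.86 (adjusted p from 0.000841 to 0.0270). The Chd4/Brg1-ECDKO call was lost when any 1 of its 6 libraries was left out, with adjusted p from 0.0736 to 0.147.

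Ass1, which encodes the enzyme that joins citrulline and aspartate, was at 121, 109 and 118 TPM in control non-ECs. The Brg1-ECKO libraries held 195, 149 and 181 TPM, the Chd4-ECKO libraries 152, 161 and 147 TPM and the Chd4/Brg1-ECDKO libraries 145, 107 and 101 TPM. All 6 single-mutant libraries were above the controls, whereas the Chd4/Brg1-ECDKO libraries overlapped them. Ass1 passed the test in Brg1-ECKO, with a log2 fold change of 0.58 (SE 0.14, limma adjusted p = 0.0185). The Chd4-ECKO value was 0.40 (SE 0.14, limma adjusted p = 0.0723) and did not.

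Nags was at 5.75, 7.70 and 6.72 TPM in control non-ECs. The Chd4-ECKO embryos gave 12.1, 9.66 and 11.7 TPM, the Brg1-ECKO embryos 12.0, 10.2 and 9.39 TPM and the Chd4/Brg1-ECDKO embryos 6.84, 7.91 and 7.78 TPM. Again the single mutants were above all controls, and the Chd4/Brg1-ECDKO libraries lay among or just above them. It rose by 0.66 on the log2 scale in Chd4-ECKO (SE 0.14, limma adjusted p = 0.0210) and by 0.58 in Brg1-ECKO (SE 0.14, limma adjusted p = 0.0238).

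Glul, the gene of the enzyme that fixes ammonia into glutamine, was at 170, 132 and 161 TPM in controls. With Chd4 deleted it was at 222, 194 and 211 TPM, with Brg1 deleted at 237, 190 and 238 TPM and with both deleted at 190, 166 and 185 TPM. The single mutants did not overlap the controls and the Chd4/Brg1-ECDKO libraries did. Glul rose by 0.44 in Chd4-ECKO (SE 0.12, limma adjusted p = 0.0425) and by 0.52 in Brg1-ECKO (SE 0.12, limma adjusted p = 0.0171) on the log2 scale. The call in Chd4-ECKO sits close to the threshold, and the count of 3 members there became 1 when Chd4-ECKO replicate 3, control replicate 1 or control replicate 3 was left out. In Brg1-ECKO the count of 4 became 1 without Brg1-ECKO replicate 1, and 2 without Brg1-ECKO replicate 3 or control replicate 2.

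The other members did not pass the test in any non-EC comparison with controls, but some came past it under single alternatives. Gls2 was called without a variance trend in Chd4-ECKO and Brg1-ECKO (limma adjusted p = 0.0444 and 0.0452) and without Chd4-ECKO replicate 1 (0.0295). In Brg1-ECKO Slc25a15 was called with the replicate block (limma adjusted p = 0.0485) and without replicate 2 (0.0392), and Otc with the compared groups alone (0.0428). Otc was at 19.1, 19.8 and 22.7 TPM in controls and at 34.9, 24.4 and 34.3 TPM in Brg1-ECKO (log2 fold change 0.57, SE 0.24, limma adjusted p = 0.153). In Chd4-ECKO its libraries were far apart, at 35.1, 23.3 and 15.5 TPM, on both sides of the controls. In Chd4/Brg1-ECDKO Otc was at 30.1, 26.7 and 23.2 TPM, above all controls.

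Slc25a15, the ornithine carrier, was at 37.1, 33.7 and 39.1 TPM in controls and above them in all 9 Cre-positive libraries. The Chd4-ECKO libraries held 59.7, 47.7 and 39.9 TPM, the Brg1-ECKO libraries 61.0, 41.2 and 52.2 TPM and the Chd4/Brg1-ECDKO libraries 52.0, 43.3 and 50.9 TPM. The spread within the mutant groups was wide beside this gap, and the log2 fold changes of 0.40, 0.46 and 0.40 (SE 0.16 each) had limma adjusted p of 0.118, 0.0914 and 0.346. Gls2 behaved likewise at a lower level, at 2.64, 3.49 and 3.33 TPM in controls, with means of 5.04 TPM in Chd4-ECKO, 4.93 TPM in Brg1-ECKO and 4.67 TPM in Chd4/Brg1-ECDKO. Its log2 fold changes of 0.55, 0.51 and 0.45 (SE 0.16 each) had limma adjusted p of 0.0525, 0.0613 and 0.245. Slc25a13 moved least in the single mutants, by 0.10 in each, and was at 71.5, 71.7 and 69.4 TPM in Chd4/Brg1-ECDKO against 61.0, 55.7 and 58.7 TPM in controls.

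Counted by libraries alone, 6 of the 8 tested members had all Chd4-ECKO non-EC values above all controls, where 15.8% of the genes tested did. In Brg1-ECKO it was 7 of 8 against 21.9%, and in Chd4/Brg1-ECDKO 5 of 8 against 16.0%. Cps1, which was not tested, had no overlap in Chd4-ECKO (higher) and Chd4/Brg1-ECDKO (lower). With 3 against 3 libraries an exact permutation test cannot go below 0.10 for a single gene. Of the 8, Asl, Slc25a15 and Gls2 were above the controls in all 9 Cre-positive non-EC libraries, where 8.33% of the genes tested were. The median log2 fold change of the 8 tested members was 0.42 with Chd4 deleted, 0.54 with Brg1 deleted and 0.32 with both deleted, and that of all genes was 0.01, 0.02 and 0.01. All 8 were above 0 in each of the 3 mutant groups, and so they were in the single mutants under quantile normalization and without mitochondrially encoded genes. In Chd4/Brg1-ECDKO 8 were above 0 under quantile normalization and 7 without mitochondrially encoded genes. The direction did not hold under every alternative. It was above 0 for 6 members without Chd4-ECKO replicate 1, for 7 without Brg1-ECKO replicate 1, and in Chd4/Brg1-ECDKO for 7 without its replicate 1 or control replicate 2. With the level of the hepatoblast markers as a covariate, a fit described with those markers, 5 of 8 were above 0 with Chd4 deleted (median 0.08), 5 with Brg1 deleted (median 0.12) and 4 with both deleted (median 0.01).

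**Figure D3:**
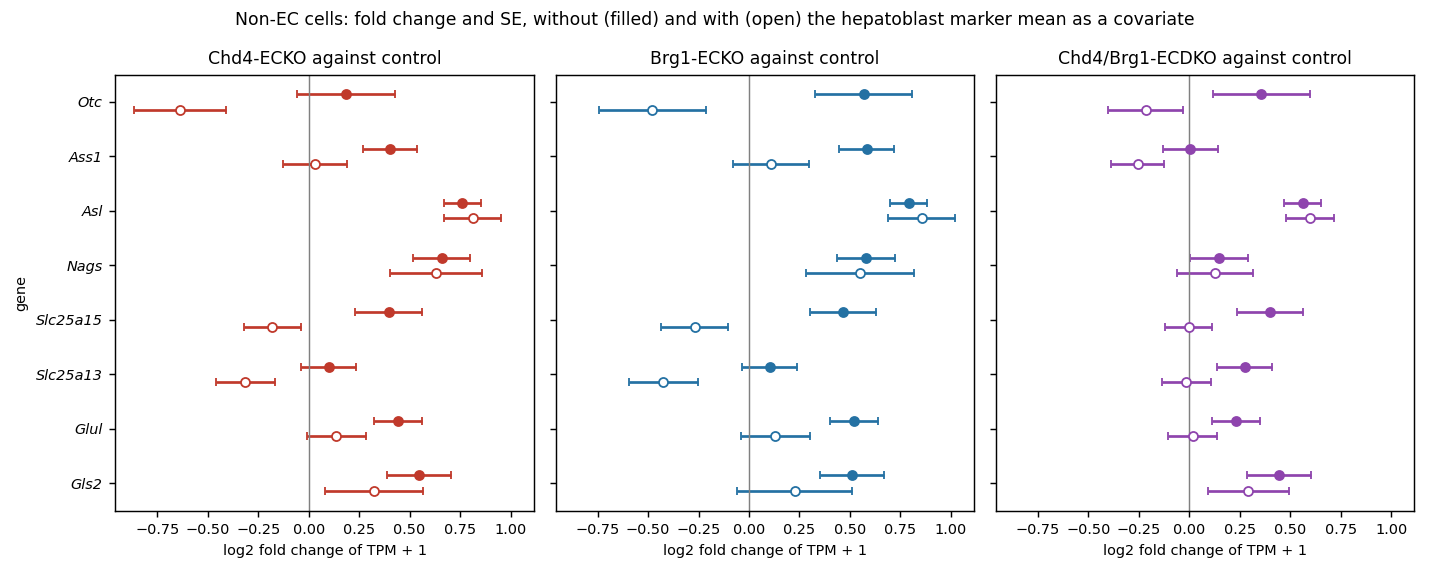
Log2 fold change against the 3 shared controls in non-ECs, with its standard error, for the 8 tested members in Chd4-ECKO, Brg1-ECKO and Chd4/Brg1-ECDKO, without (filled) and with (open) the hepatoblast marker mean as a covariate. Without it Asl lay at 0.76, 0.79 and 0.56, and Slc25a13 at 0.10 in both single mutants.

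Chd4/Brg1-ECDKO non-ECs were also set against Chd4-ECKO non-ECs, the comparison that asks what the added deletion of Brg1 changes. No member was called, and neither was any of the 12223 genes, 0% at either rule, although 2668 genes had an unadjusted p below 0.05. Of the 8 tested members 4 had all Chd4/Brg1-ECDKO libraries below all Chd4-ECKO libraries, namely Ass1, Asl, Nags and Glul, against 7.12% of the genes tested, and Cps1, which was not tested, did so too. The log2 differences were -0.40 for Ass1 (SE 0.14) and -0.51 for Nags (SE 0.14), each with a limma adjusted p of 0.217. Without Chd4-ECKO replicate 1, Nags (adjusted p = 0.0469) passed the test in the same limma model. The median over the members was -0.15 and that of all genes 0.04. In this comparison 10 of 12 hepatoblast (median -0.26), 7 of 8 macrophage (-0.49) and 5 of 6 mesenchymal genes (-0.57) were also below 0. Of 8 endothelial genes 6 were above 0 (median 0.26). None of these genes was called, and their part in the members' values was not tested.

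Hepatoblast markers moved with these members. Their summed TPM was 19887 to 22181 in control non-ECs, 30701 to 41009 in Chd4-ECKO, 29720 to 43357 in Brg1-ECKO and 25691 to 34179 in Chd4/Brg1-ECDKO, with no overlap between any mutant group and the controls. None of the 12 genes was at 0 in any library. At any size 8 of the 12 rose in Chd4-ECKO (median log2 fold change 0.79), 10 in Brg1-ECKO (0.92) and 1 in Chd4/Brg1-ECDKO (0.46). Of 8 erythroid genes, 1 fell in Chd4-ECKO, 3 fell in Brg1-ECKO and none was called in Chd4/Brg1-ECDKO, with medians of -0.20, -0.89 and -0.36 and summed levels of 590 to 1979 TPM over the non-EC libraries. Other lists moved too. All 6 mesenchymal genes had fold changes above 0 in each mutant group, with medians of 0.75, 0.41 and 0.28 and 1 called, in Chd4-ECKO. Their summed level was 26.2 to 61.9 TPM in controls and 43.5 to 107 TPM in the mutants. All 8 macrophage genes were above 0 in both single mutants (medians 0.50 and 0.42) and 5 of 8 in Chd4/Brg1-ECDKO (0.08), with none called and sums of 94.6 to 212 TPM in controls and 101 to 296 TPM in the mutants. All 5 megakaryocyte genes were below 0 in Chd4-ECKO (median -0.24) and in Chd4/Brg1-ECDKO (median -0.41) and 4 of 5 in Brg1-ECKO (median -0.03), with none called and sums of 765 to 1195 TPM in controls and 639 to 1655 TPM in the mutants. Of 8 endothelial genes tested, 3 were above 0 in Chd4-ECKO (median -0.12), 5 in Brg1-ECKO (0.34) and 7 in Chd4/Brg1-ECDKO (0.24), with none called. No gene of these lists was at 0, and their part in the members' values was not tested. How much of the members' change came with the make-up of the fraction was not tested. A fit with the mean log2 level of the hepatoblast markers as a covariate, chosen after the data were seen, is given as a description. It cannot separate make-up from genotype, because the covariate did not overlap between controls and mutants.

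In that fit Asl kept its difference, at 0.81 in Chd4-ECKO (SE 0.14, limma adjusted p = 0.00958) and 0.86 in Brg1-ECKO (SE 0.17, adjusted p = 0.0270), and had 0.60 in Chd4/Brg1-ECDKO (SE 0.12, adjusted p = 0.0924). Nags was at 0.63 in Chd4-ECKO (limma adjusted p = 0.0531) and 0.55 in Brg1-ECKO (limma adjusted p = 0.145), past the test in neither. The other calls in Brg1-ECKO were lost as well, with Ass1 going from 0.58 to 0.11 (limma adjusted p = 0.691) and Glul from 0.52 to 0.13 (limma adjusted p = 0.584). In Chd4-ECKO Ass1 went from 0.40 to 0.03 and Glul from 0.44 to 0.14, and Otc became lower, at -0.64 (SE 0.23, limma adjusted p = 0.0499). Slc25a15 turned to -0.18 in Chd4-ECKO and -0.27 in Brg1-ECKO. The marker mean was 9.34 to 9.51 in the controls and 9.71 to 10.5 in the mutants, on the log2 scale, so the groups did not overlap in the covariate and the fit rests on the slope within the groups. After the group means were subtracted, the Pearson correlation of a member's log2 level with the hepatoblast mean over the 12 non-EC libraries was 0.914 for Slc25a15, 0.854 for Otc, 0.820 for Slc25a13, 0.732 for Ass1, 0.707 for Glul and 0.441 for Gls2, against 0.0563 for Nags and -0.203 for Asl. These correlations describe 3 embryos in each of 4 genotypes and carry no test. Slc25a15, Otc and Slc25a13 followed the markers from embryo to embryo within a genotype, and Asl and Nags had values near 0 or below.

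**Figure D4:**
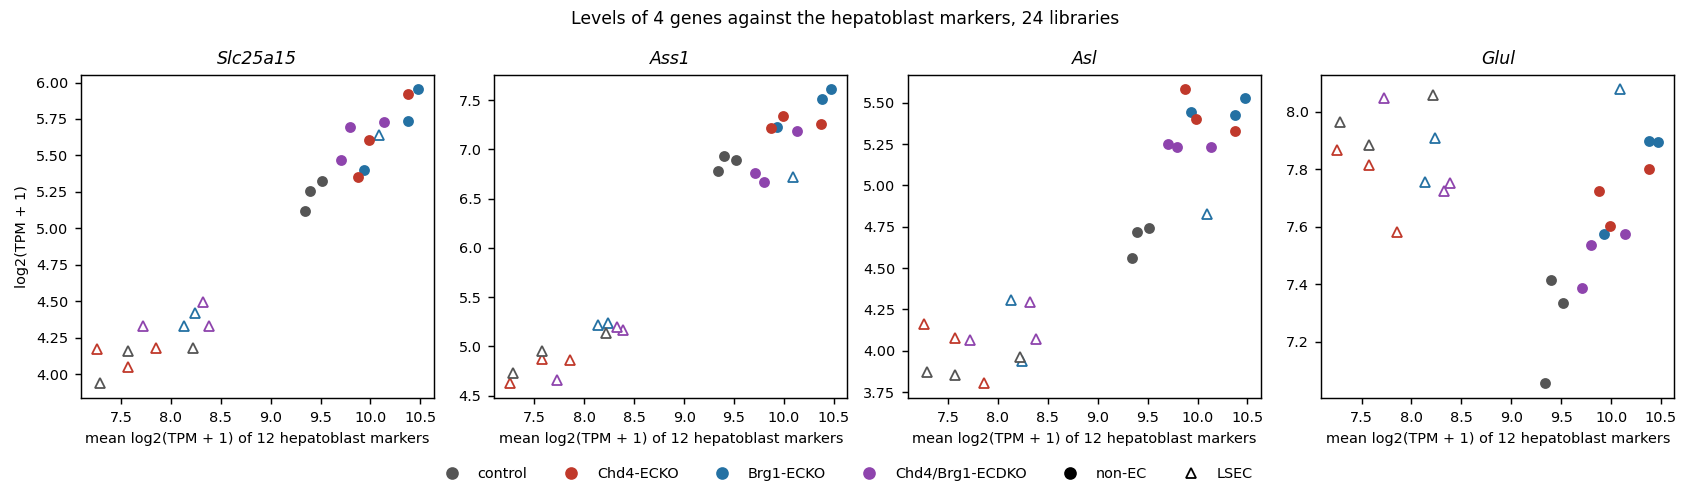
Log2(TPM + 1) of members against the mean log2 level of 12 hepatoblast markers in the 24 libraries for Slc25a15, Ass1, Asl and Glul, coloured by genotype, with filled circles for non-ECs and open triangles for LSECs. In non-ECs Slc25a15 climbed with the markers (r = 0.914 within genotypes), whereas Asl did not within genotypes (r = -0.203) although all 9 mutants stood above the controls.

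The genes whose profile over the 12 non-EC libraries was most like each member, by Pearson correlation of log2 levels after subtraction of the group means, among 7874 genes with a mean of at least 10 TPM, differed from member to member. For Slc25a15 it was Erlin1 (0.989), for Otc Nfyb (0.985), for Slc25a13 Fermt2 (0.982) and for Glul Pkdcc (0.970). Asl was nearest to Lmf2 (0.961), Ass1 to Rhob (0.958), Gls2 to Tpst1 (0.897) and Nags to Snw1 (0.842). No member was the nearest gene of another.

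In LSECs no member passed either rule in any genotype comparison by limma. Of 13444 genes, 0.521% were DEGs and 0.707% were called at any size with Chd4 deleted. These shares were 0.0149 and 0.0223% with Brg1 deleted, 0.565 and 0.870% in Chd4/Brg1-ECDKO, and 0.0372% by both rules in Chd4/Brg1-ECDKO against Chd4-ECKO. At an unadjusted p below 0.05 these comparisons held 872, 1302, 1632 and 1397 genes. The members' log2 fold changes ran from -0.32 to 0.29 in Chd4-ECKO, with a median of 0.06, and from -0.13 to 0.39 in Chd4/Brg1-ECDKO, with a median of 0.26 where that of all genes was 0.16. Chd4/Brg1-ECDKO against Chd4-ECKO gave 0.09 to 0.55, with a median of 0.20 for the members and 0.13 for all genes. Hepatoblast markers moved the same way there, 12 of 12 above 0 with a median of 0.54 and none called, and with them as a covariate 6 of the 8 members were below 0 (median -0.07). In Chd4/Brg1-ECDKO LSECs against controls 12 of 12 markers were likewise above 0 (median 0.40), and the members' median became 0.06 with the covariate.

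In Chd4-ECKO LSECs, without overlap were 2 members, Slc25a13 above the controls (25.1, 24.4 and 27.7 TPM against 20.0, 23.0 and 19.7 TPM) and Glul below them (191, 224 and 233 TPM against 235, 265 and 249 TPM), where 8.70% of the genes tested were higher and 3.65% lower. In Chd4/Brg1-ECDKO LSECs Asl, Slc25a15 and Slc25a13 were above all controls, against 20.8% of genes.

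The Brg1-ECKO LSECs turned on 1 library. Ass1 was at 105, 36.3 and 36.8 TPM there against 29.9, 34.2 and 25.5 TPM in controls, and Otc at 34.0, 9.34 and 8.83 TPM against 6.52, 8.70 and 5.84 TPM. Replicate 1 was the high one for both, as it was for Nags (6.95, 2.35 and 1.92 TPM), Slc25a15 (48.9, 19.2 and 20.3 TPM) and Asl (27.4, 18.8 and 14.3 TPM), and it was the library with the high hepatoblast sum. The log2 fold changes were 0.79 for Ass1 (SE 0.31), 0.94 for Otc (SE 0.39), 0.85 for Nags (SE 0.32), 0.71 for Slc25a15 (SE 0.26) and 0.46 for Asl (SE 0.19), with limma adjusted p from 0.426 to 0.471. Without replicate 1 they were 0.29, 0.35, 0.41, 0.28 and 0.23, each with a limma adjusted p of 1.00, and the median over the members went from 0.64 to 0.25. Libraries without overlap were found for Otc, Ass1 and Slc25a15, against 10.9% of genes. With all 3 replicates, 12 of 12 hepatoblast markers were above 0 (median 1.14) and 11 of 11 endothelial genes below 0 (median -0.47), none called. The hepatoblast covariate gave the members a median of -0.02, with 3 of 8 above 0. For Glul replicate 1 was also the highest, by a smaller margin, at 269, 215 and 240 TPM.

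Whether a genotype acted differently in LSECs and non-ECs was tested as a difference of the 2 effects in 1 model of 24 libraries. No member was called for any genotype, against 0.690% (DEG) and 1.02% (any size) of 13775 genes for Chd4-ECKO, 0.639 and 1.04% for Brg1-ECKO and 0.0581% by both rules for Chd4/Brg1-ECDKO. At an unadjusted p below 0.05 these differences held 2627, 2459 and 1043 genes. Glul came closest, with a Chd4-ECKO effect 0.66 lower in LSECs than in non-ECs on the log2 scale (difference -0.66, SE 0.18, limma adjusted p = 0.0776) and a Brg1-ECKO effect 0.58 lower (difference -0.58, SE 0.18, limma adjusted p = 0.108). Libraries of the 2 fractions with the same genotype and number may come from the same embryo, which the labels do not state. With these pairs as a block the Chd4-ECKO difference of Glul passed the test (limma adjusted p = 0.0360). For Asl the Chd4-ECKO difference was -0.64 (SE 0.22, limma adjusted p = 0.150). The Brg1-ECKO differences rested on LSEC replicate 1: 5 of 8 members were above 0 with it (median 0.22) and 1 of 8 without it (median -0.26).

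Cps1 stood apart from the other members in where its RNA was found. It was below 1 TPM in 20 of the 24 libraries. In Chd4-ECKO non-ECs it was at 0.533, 5.37 and 4.16 TPM (3.35 ± 2.52, SD, n = 3), against 0.401, 0.456 and 0.404 TPM in controls (0.421 ± 0.0311, SD, n = 3). Brg1-ECKO non-ECs held 0.772, 0.0828 and 0.409 TPM and Chd4/Brg1-ECDKO non-ECs 0.319, 0.282 and 0.106 TPM. In Chd4-ECKO LSECs it was at 0.0872, 1.08 and 1.13 TPM against 0.147, 0.259 and 0.0255 TPM in controls. The 4 libraries above 1 TPM were thus the Chd4-ECKO replicates 2 and 3 of both fractions, and replicate 1 was near the control level in each. The mitochondrial share moved with this: it was 7.37, 3.43 and 2.33% in Chd4-ECKO non-ECs against 6.17 to 7.69% in controls, and 31.5, 20.4 and 14.1% in Chd4-ECKO LSECs against 20.6 to 24.6% in controls. Low shares were also found where Cps1 was low, in replicates 2 and 3 of Chd4/Brg1-ECDKO LSECs (14.7 and 13.9%, with Cps1 at 0.0963 and 0 TPM). Cps1 was not tested within the fractions, because it reached 1 TPM in only 2 libraries of each.

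The embryonic globin genes Hba-x, Hbb-y and Hbb-bh1, which mark primitive red cells, were looked at after the values of Cps1 had been seen. Hba-x was at 23.8, 208 and 162 TPM in Chd4-ECKO non-ECs and at 12.2, 5.41 and 4.27 TPM in controls. In LSECs it was at 103, 467 and 254 TPM in Chd4-ECKO and at 11.9, 6.14 and 11.8 TPM in controls. Replicates 2 and 3 held the higher values of all 3 genes in both fractions, the same replicate numbers as for Cps1. In Chd4/Brg1-ECDKO the globins were higher without Cps1: Hba-x was at 113, 63.1 and 101 TPM in Chd4/Brg1-ECDKO LSECs, where Cps1 was at 0.118, 0.0963 and 0 TPM. In Brg1-ECKO non-ECs both Hba-x (12.8, 5.07 and 5.59 TPM) and Cps1 overlapped the controls. By the same likeness within groups, among 7874 genes over the 12 non-EC libraries, Hba-x ranked 12 for Cps1 (r = 0.878), behind Mydgf (0.955) and Morn2 (0.949), whereas Hbb-y ranked 464 (r = 0.649) and Hbb-bh1 ranked 940 (r = 0.557). Over the 12 LSEC libraries it ranked 900 of 8455 (r = 0.578), and Selenop (0.935) and Plin2 (0.926) were nearest. The part of blood cells in the Cps1 level of Chd4-ECKO replicates 2 and 3 was not tested.

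**Figure D5:**
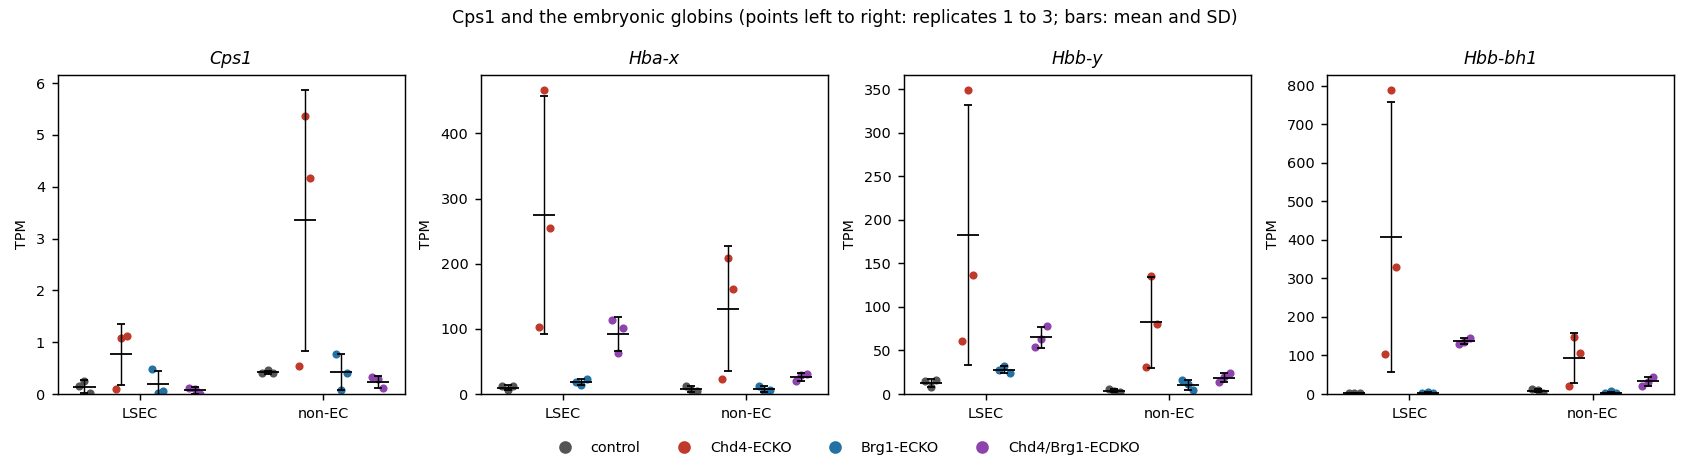
TPM of Cps1 and of embryonic globin genes in each library by genotype and fraction, with the mean and SD of 3, each panel with its own linear axis. Replicates 2 and 3 of Chd4-ECKO held the highest Cps1 in both fractions (1.08 to 5.37 TPM), together with high Hba-x.

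A list of 33 other genes of nitrogen, arginine and glutamine metabolism gave the setting of the members. In LSECs none of the 29 tested was called in any genotype comparison. In non-ECs 28 were tested: 2 rose in Chd4-ECKO, against 9.48% of all genes called in either direction, 4 rose in Brg1-ECKO, Car5a left aside, against 11.7%, and none was called in Chd4/Brg1-ECDKO or between Chd4/Brg1-ECDKO and Chd4-ECKO. Got2, the mitochondrial aspartate aminotransferase, rose by 0.60 in Chd4-ECKO (SE 0.10, limma adjusted p = 0.00768) and by 0.60 in Brg1-ECKO (limma adjusted p = 0.00325). Agmat, which encodes agmatinase, went from 9.38, 7.68 and 7.75 TPM in controls to 15.9, 18.4 and 15.6 TPM in Brg1-ECKO, without overlap (log2 fold change 0.93, limma adjusted p = 0.00275), and rose by 0.62 in Chd4-ECKO (SE 0.14, limma adjusted p = 0.0264). The Chd4-ECKO call of Agmat was lost without Chd4-ECKO replicate 3, control replicate 2 or control replicate 3 (limma adjusted p up to 0.0831) and in 5 of 15 alternatives in all (up to 0.136), and the Brg1-ECKO call in none of 15. In Brg1-ECKO Gpt2, an alanine aminotransferase, rose by 0.71 (SE 0.18, adjusted p = 0.0296) and Ddah1, which degrades methylarginines, by 0.64 (SE 0.17, adjusted p = 0.0301). When each of the 6 libraries was left out in turn, Gpt2 kept its call in 2 fits and Ddah1 in 1. With the hepatoblast markers as a covariate both lost the call and fell below 0, at -0.08 for Gpt2 and -0.12 for Ddah1, and 10 of the 12 markers rose in this same group. Car5a, the mitochondrial carbonic anhydrase that supplies bicarbonate to CPS1, was at 0.412, 0.427 and 0 TPM in controls and at 1.22, 0.737 and 2.52 TPM in Brg1-ECKO. It entered the model only through 6 Cre-positive libraries at 1 TPM or more, so no test of it is given and it is not counted among the genes that rose.

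Between control fractions, 19 of 30 genes of this list were lower in LSECs at any size, against 67.1% of all genes called in either direction. Ddah2 was higher (log2 fold change 3.00). Nos3, the endothelial nitric oxide synthase that also uses arginine, was at 19.8 to 42.9 TPM over the 12 LSEC libraries and at most 0.331 TPM in non-ECs. The glutamate transporter gene Slc1a2 was at 0.878 to 1.92 TPM in LSECs and at most 0.787 TPM in non-ECs. Both entered the model only through LSEC libraries at 1 TPM or more, so no test of them is given and they are not counted. Among those lower were the amino acid transporter genes Slc38a5 (-3.24), Slc7a5 (-2.49) and Slc7a1 (-1.95), the ammonia transporter gene Rhbg (-1.81), Asns (-2.57), which makes asparagine, Cad (-1.95), which holds the cytosolic carbamoyl phosphate synthetase of pyrimidine synthesis, and Glud1 (-1.29), which releases ammonia from glutamate. Also lower were Agmat (-1.74), Slc1a5 (-1.497), Aldh18a1 (-1.36), Got2 (-1.26), Slc38a3 (-0.99), Ddah1 (-0.87), Odc1 (-0.70), Slc25a12 (-0.57), Got1 (-0.55), Oat (-0.44) and Prodh (-0.41). The last ones were less secure: Prodh kept its call in 3 of 6 fits with 1 library left out (-0.53 to -0.28, limma adjusted p up to 0.128) and lost it without mitochondrially encoded genes (-0.15). Oat lost its call in that setting (-0.16) and with quantile normalization (-0.07).

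A list of 12 genes of transcription factors and other regulators of hepatocyte metabolism was also followed. In Chd4-ECKO non-ECs 5 rose at any size, against 9.48% of all genes, among them Foxa3 (log2 fold change 0.84), Foxa2 (0.87), Cebpa (0.75) and Hnf4a (0.81). Over the list the log2 fold changes ran from -0.62 to 1.03, and 1 gene was a DEG, against 0.884% of all genes. In Brg1-ECKO the same 5 and Klf15 (0.70) rose, against 11.7%, with Cebpa at 0.97. Here the list ran from -0.51 to 1.08, and 1 gene was a DEG, against 1.37%. In Chd4/Brg1-ECDKO only Foxa2 was called (0.66, limma adjusted p = 0.0466). In LSECs Cebpb, an inflammation-induced factor that also acts in hepatocytes, was the only one called. It was at 18.8, 16.9 and 18.3 TPM in controls, 31.8, 37.6 and 38.5 TPM in Chd4-ECKO and 30.8, 30.2 and 36.0 TPM in Chd4/Brg1-ECDKO. The mutants did not overlap the controls, and the log2 fold changes were 0.96 (SE 0.13, limma adjusted p = 0.00337) and 0.81 (limma adjusted p = 0.0105). Macrophage markers moved with Cebpb in LSECs: all 8 genes of that list had fold changes above 0 in Chd4-ECKO (median 0.99, with 1 called) and 7 of 8 in Chd4/Brg1-ECDKO (median 0.65, none called). Their summed level was 484 to 611 TPM in controls, 671 to 1068 TPM in Chd4-ECKO and 530 to 806 TPM in Chd4/Brg1-ECDKO, none was at 0, and their part in the Cebpb values was not tested. Between control fractions 11 of the 12 regulator genes were lower in LSECs, by the same limma model at any size, against 67.1% of all genes called. Hepatoblast markers rose in the same non-EC groups, and their part in the regulator values was not tested.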

How the data were processed

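Bulk RNA-seq of 24 libraries (LSECs and non-ECs of 4 genotypes, 3 embryos each) was used. The authors selected poly-A RNA, trimmed repeated guanines, used CLC Genomics Workbench for alignment to GRCm39/mm39 (version and strand setting not given in the sources used here) and deposited TPM per gene. Every library sums to 1000000 TPM, so depth is unknown and no counting interval was given. The 8 deposited mean columns were not used.

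Groups came from the labels. limma 3.58.1 in R 4.3.3, with a mean-variance trend, was fitted to log2(TPM + 1) of genes at 1 TPM or more in at least 3 libraries, with all 4 genotypes of a fraction in 1 model (13444 genes in LSECs, 12223 in non-ECs) and all 24 libraries for comparisons between fractions (13775 genes). Fold changes on this scale understate changes of low genes. P-values were Benjamini-Hochberg adjusted over all genes tested. On simulated data the model recovered, for Chd4-ECKO against control, 97% of log2 changes of 1.5 and 99% of 2.5 in LSECs, 97% and 98% in non-ECs, and between control fractions 94% and 100%. These sizes exceed the members' changes between genotypes. The changes were put only into genes with a mean log2(TPM + 1) above 3, and the noise was drawn independently. Recovery for lower members, namely Cps1, Gls2 and, in LSECs, Nags, was therefore not measured.

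The members and gene lists were chosen with earlier results of these data known. Some items, 1 gene of the set among them, are not reported here. All members reported were named, with SE and adjusted p in genotype comparisons where called or at an unadjusted p below 0.05. Of the related genes those with an adjusted p below 0.05 were named, with no test given for Car5a, Nos3 and Slc1a2. Regulators named are a selection of those called, and marker lists were given by counts. Hba-x, Hbb-y and Hbb-bh1 were chosen after values were seen. Replicates of a group correlated at 0.981 to 0.996 and no 2 libraries were identical. Libraries of the 2 fractions with the same genotype and number deviated together (correlation 0.124 to 0.411 over 12 pairs, mean 0.270). That such a pair is 1 embryo is inferred and not labelled, and the pair was used as a block in an alternative fit between fractions. Alternatives were another pseudocount (0.1 TPM), no filter, quantile normalization, a filter on the mean (5 TPM or more), exclusion of mitochondrial genes, no trend, a replicate block, the compared groups alone, a hepatoblast covariate and each library left out. Positions are from the GENCODE annotation. Promoter sequences were read from the GRCm39 genome at the start of the canonical transcript of each gene in that annotation.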

Additional observations from a re-analysis of the deposited data

How the results depend on the processing

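Depth could not be assessed from TPM, and members below 1 TPM, Cps1 above all, are limited by it. Of the values tracked for members and related genes, under all alternatives, 899 kept their side of the threshold and direction. A further 70 lost the call, 12 gained one, 10 moved and 8 turned direction, all 8 with the hepatoblast covariate. Those were Ass1 (-0.0188) and Otc (-0.0395) in Brg1-ECKO LSECs, Slc25a15 in Chd4-ECKO non-ECs (-0.18), Slc25a15 (-0.27), Otc (-0.48), Ddah1 (-0.121) and Gpt2 (-0.0831) in Brg1-ECKO non-ECs, and Slc25a15 in Chd4/Brg1-ECDKO non-ECs (-0.00203). Outside these, Otc (-0.64) and Slc25a13 (-0.31) in Chd4-ECKO, Slc25a13 (-0.42) in Brg1-ECKO, Otc (-0.22), Ass1 (-0.26) and Slc25a13 (-0.0155) in Chd4/Brg1-ECDKO non-ECs, Slc25a13 (-0.0295) and Gls2 (-0.0417) in Brg1-ECKO LSECs, and Ass1 (-0.25) and Otc (-0.16) in Chd4/Brg1-ECDKO LSECs also fell below 0 against controls with the covariate. The counts of members called at any size in non-ECs also moved. For Chd4-ECKO the count was 1 with the compared groups alone, which has fewer samples, and 1 to 4 when 1 library was left out. For Brg1-ECKO it was 1 with the covariate and 1 to 5 when 1 library was left out. For Chd4/Brg1-ECDKO it was 0 with the covariate and 0 when any 1 library was left out. For Chd4/Brg1-ECDKO against Chd4-ECKO it was 2 with the covariate (Nags lower, Slc25a13 higher) and 0 to 1 when 1 library was left out. For the difference of the Chd4-ECKO effect between fractions it was 1 with quantile normalization, 1 with the replicate block (Glul in both) and 0 to 2 when 1 library was left out, and the count of DEGs was 0 to 1. For the Brg1-ECKO difference it was 1 with quantile normalization (Glul, adjusted p = 0.0496 by limma). Apart from the construction of these alternatives, the cause was not tested.

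The replicate block changed no other count of members by over 1.5 times: it gave 0 in LSECs and 3, 5 and 1 in Chd4-ECKO, Brg1-ECKO and Chd4/Brg1-ECDKO non-ECs. Within a fraction, libraries of the same number correlated down to -0.0434 in LSECs and -0.327 in non-ECs, so the numbers were not taken as pairs. Their means were 0.169, 0.175 and 0.170 for numbers 1, 2 and 3 in LSECs and 0.247, 0.142 and -0.00904 in non-ECs, against -0.0852 and -0.0667 for different numbers, a hint from the data and not from the design. All genes had a median log2 shift of 0.16 in Chd4/Brg1-ECDKO LSECs, which quantile normalization removed.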
